A study of Populus davidiana with 6 samples.

Results

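Among the genes that aspen leaves expressed well, 287 kept nearly the same level in all 6 libraries of a short drying experiment. They were chosen from the 40537 genes of the files by 3 criteria. At least 1 of a gene's transcripts had to be annotated, its summed level had to average from 50 to under 500 FPKM in the 3 controls, and the highest of its 6 library values could exceed the lowest by 15% at most. FPKM, the unit of all levels here, divides the fragments assigned to a transcript by its length and by the size of the library. Of the 2485 annotated genes in that range of control levels, 11.5% met the limit. The levels, their spread over the libraries and the differences between the groups chose these genes, so they are given as a description and carry no test. The choice did not directly use the structure of the genes, the division of each sum between transcripts, or the genes next to them. A limit on the sum can still bear on structure and division, and steady genes were passed over as neighbours. Comparisons of these with other genes are therefore also descriptions.

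The RNA came from leaves of Populus davidiana, an Asian aspen, of the cultivar Odae19, which is labelled as drought tolerant. All plants were seedlings grown in vitro and about 6 weeks old. The 3 control libraries came from plants labelled as controls, and the 3 air-dried libraries from plants lifted out of the medium, rinsed and then kept in the open air to dry for roughly 10 min. Whether the controls were also lifted and rinsed is not stated, so lifting, rinsing and drying cannot be told apart. The labels do not state whether replicates were separate plants or cultures, and the p-values therefore reflect no more than the spread between these samples, possibly a technical one. In whole leaves, fewer cells of a type and less RNA per cell cannot be told apart.

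Genes with a nearly constant RNA level are often called housekeeping or reference genes. In plants many of those known encode parts of the ribosome, the proteasome, the cytoskeleton or the machinery of translation, and they serve as internal standards when the level of another gene is measured by RT-PCR. A constant sum can still hold a changing mixture, because one plant gene can give several transcripts through alternative starts, splicing or ends. The files pair no identifier with a gene name (0 names), so neither the functions of the steady genes nor the leaf identity of the samples could be checked against known markers, and the genes are described by level, structure and position.

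The libraries were alike in the number of genes they detected and unlike in summed FPKM. Between 22075 and 22404 genes per library reached 1 FPKM, while the summed FPKM ran from 1.71e+06 in air-dried 3 to 4.18e+06 in air-dried 2. The steady genes held 0.814% to 2.02% of that sum. Over the tested annotated genes alone, the sum ran only from 792724 FPKM in control 3 to 920256 FPKM in control 1. The wide difference thus lay mostly in the other listed genes. On the first principal component of all tested genes, control 3 (3.35) and air-dried 1 (11.98) lay between the other controls (−48.5 and −51.9) and the other air-dried libraries (48.4 and 36.7). Counts are therefore also given without these 2 libraries.

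The smallest ratio among the 287 was that of POPTR_0003s05230.r1, on the plus strand of chromosome 3 (6477321 to 6479912). The level stood at 56.7, 58.3 and 56.2 FPKM in the controls and 58.4, 57.0 and 57.0 FPKM in the air-dried leaves. The groups overlapped, and the highest library exceeded the lowest by a factor of 1.04. Its annotated transcript held 99.7% of the sum on average, so here the gene and its main transcript were steady together.

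POPTR_0017s02080.r1, on the plus strand of chromosome 17 (1515804 to 1519967), stood at 101, 105 and 105 FPKM in the controls and at 102, 102 and 102 FPKM after drying. POPTR_0005s22870.r1, on the plus strand of chromosome 5 (21750453 to 21755943), has 14 listed transcripts and measured 191, 190 and 189 FPKM in the controls and 189, 196 and 197 FPKM after drying. In both genes the ranges of the groups overlapped. The fourth, POPTR_0008s19160.r1 on the minus strand of chromosome 8 (13127410 to 13132984), differed in this respect. Its control libraries were at 341, 340 and 343 FPKM and its air-dried libraries at 336, 333 and 330 FPKM, so that every air-dried library lay below every control by a small amount (ratio of the means 0.975).

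At the upper end of the level range, POPTR_0013s14520.r1 measured 503, 475 and 482 FPKM in the controls and 467, 480 and 514 FPKM after drying, with means of 487 ± 14.6 and 487 ± 24.6 FPKM (SD, n = 3). POPTR_0011s05670.r1 measured 482, 502 and 499 FPKM in the controls and 470, 473 and 467 FPKM after drying. In the first the groups overlapped fully, and in the second they were separate, with a ratio of the means of 0.951. The lowest levels were those of POPTR_0001s41290.r1, at 48.6, 51.1 and 50.6 FPKM in the controls and 47.8, 48.8 and 51.0 FPKM after drying, and of POPTR_0010s10450.r1, with a mean over the 6 libraries of 50.1 FPKM.

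The limit of 15% lay within a continuous range of values. Just inside it were POPTR_0006s23700 (87.0 to 100.0 FPKM over the 6 libraries) and POPTR_0016s04290.r1 (47.9 to 55.1 FPKM). Just outside were POPTR_0008s05950.r1 (69.9 to 80.4 FPKM) and POPTR_0008s13290.r1 (48.1 to 55.3 FPKM). The median ratio of the highest to the lowest library was 1.12 in the steady genes, 1.37 in the other 2198 annotated genes of the same control range and 1.42 in all 22559 tested genes. The highest library exceeded the lowest by at most 10% in 94 of the steady genes and by at most 5% in 9.

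**Figure D1:**
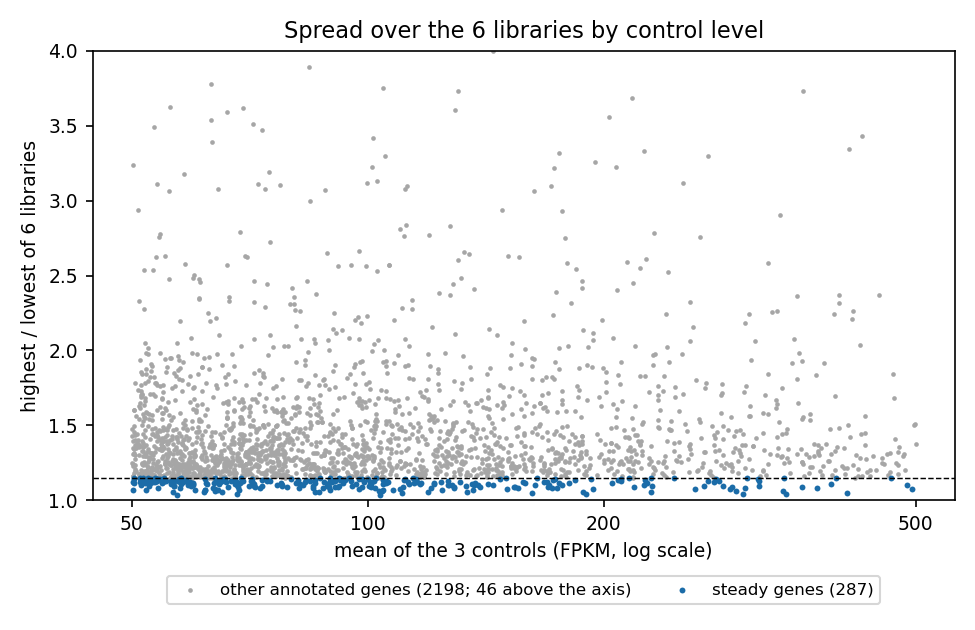
Ratio of the highest to the lowest of the 6 library values (vertical axis, no unit) against the mean of the 3 controls in FPKM (horizontal axis, log scale) for annotated genes with a control mean of 50 to under 500 FPKM; each point is a gene, blue points are the 287 steady genes, and the dashed line is the limit of 15%. Steady genes are found along the whole range of levels, and 46 other genes, with ratios over 4, lie above the top of the axis.

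How often a gene was steady hardly moved with its level. The share within the limit was 11.8% of annotated genes with a control mean of 50 to under 100 FPKM, 12% from 100 to under 200 FPKM and 9.95% from 200 to under 500 FPKM. Below and above the chosen range it was 10.3% (10 to under 50 FPKM, 917 genes) and 11.1% (500 FPKM or more, 20 genes). The rank correlation between control level and ratio across the 2485 genes was 0.068, and genes measured in the same libraries are not independent.

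The direction of the small differences was close to balanced. The mean of the air-dried libraries was above that of the controls in 132 steady genes and below it in 155, and the ratio of the means lay within 5% of 1 in 230 of them. The ratio ran from 0.903 in POPTR_0018s02610.r1 to 1.09 in POPTR_0001s18730.r1, both named here after their values were seen. POPTR_0018s02610.r1 measured 54.1, 54.0 and 50.9 FPKM in the controls and 48.1, 47.3 and 48.1 FPKM after drying. POPTR_0001s18730.r1 measured 162, 162 and 170 FPKM in the controls and 173, 185 and 181 FPKM after drying. In both the groups were separate, although the whole spread stayed within the limit.

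All 3 air-dried libraries lay above all 3 controls in 16 steady genes and below them in 24. Among all tested genes this was so in 13.4% and 9.18%. No steady gene passed the test across all genes (0 of 287, limma on log2(FPKM + 1) with Benjamini-Hochberg adjustment, lowest adjusted p = 0.344, and 0 with an unadjusted p under 0.05), where 4.30% of tested genes did. The limit on the spread removes such genes by its construction, and nothing is read from these counts.

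**Figure D2:**
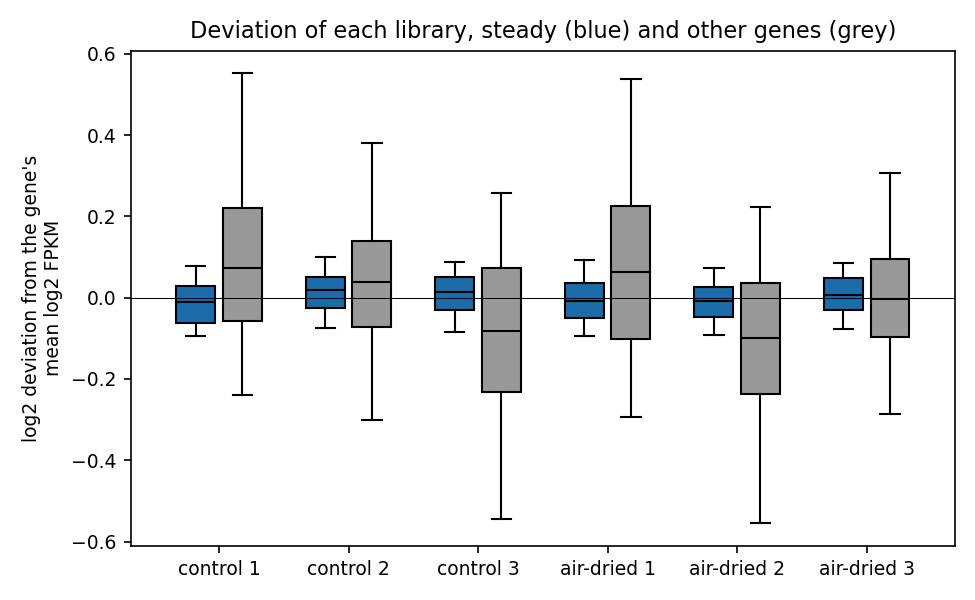
Log2 deviation of each library from a gene's mean log2 FPKM over the 6 libraries (vertical axis) for the 287 steady genes (blue) and the other annotated genes of the same control range with no value listed at 0 (grey); boxes span the quartiles with the median as a line, and whiskers the 5th to 95th percentile. The medians of the steady genes lie between −0.011 in control 1 and 0.018 in control 2, and those of the other genes between −0.10 in air-dried 2 and 0.072 in control 1.

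Within the narrow limit the libraries still took different places. Control 1 was the lowest of the 6 in 74 steady genes and air-dried 2 in 57, while control 3 was the highest in 62, air-dried 3 in 59 and control 2 in 58. The median log2 deviation from the gene mean stayed between −0.011 and 0.018 in every library. The other genes of the same control range were lower in control 3 (median −0.083) and air-dried 2 (−0.10) and higher in control 1 (0.072) and air-dried 1 (0.064). The plot of deviations by library shows both sets side by side.

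Being steady depends on the scale of FPKM. With the libraries scaled by the median ratio of all genes, 299 genes met the criteria and 250 of the 287 were among them, and with upper quartile scaling 258 did, 172 of them shared. When every library was rescaled to one common sum of FPKM, no gene did (0 of 2294 in the range). The sums over all listed genes differ between libraries far more than the limit allows. Those of the tested annotated genes alone differ much less. Leaving out 1 library can only loosen the limit, and 452 genes met it without air-dried 1. In the 4 libraries other than control 3 and air-dried 1, 640 genes met it.

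Steady genes were long in the genome compared with others of their level. Their genomic span, introns included, had a median of 4171 bp and a range of 957 to 177673 bp, against a median of 3013 bp in the other genes of the same control range and 3671 bp in all tested annotated genes. The share of genes within the limit was 0.676% for spans under 1000 bp (1 of 148), 4.93% from 1000 to under 2000 bp, 11.1% from 2000 to under 4000 bp, 18.3% from 4000 to under 8000 bp and 14% at 8000 bp or more. Each class up to 8000 bp had a higher share than the one below it. Rank correlations between span and a library's deviation, over the steady genes, ran at −0.18, −0.0040 and 0.25 for controls 1, 2 and 3, and at −0.13, 0.14 and −0.072 for air-dried 1, 2 and 3. In the other genes of the range the controls gave −0.23, −0.045 and 0.31 and the dried leaves −0.29, 0.27 and 0.0083. The part of this trend in the counts by span was not tested.

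**Figure D3:**
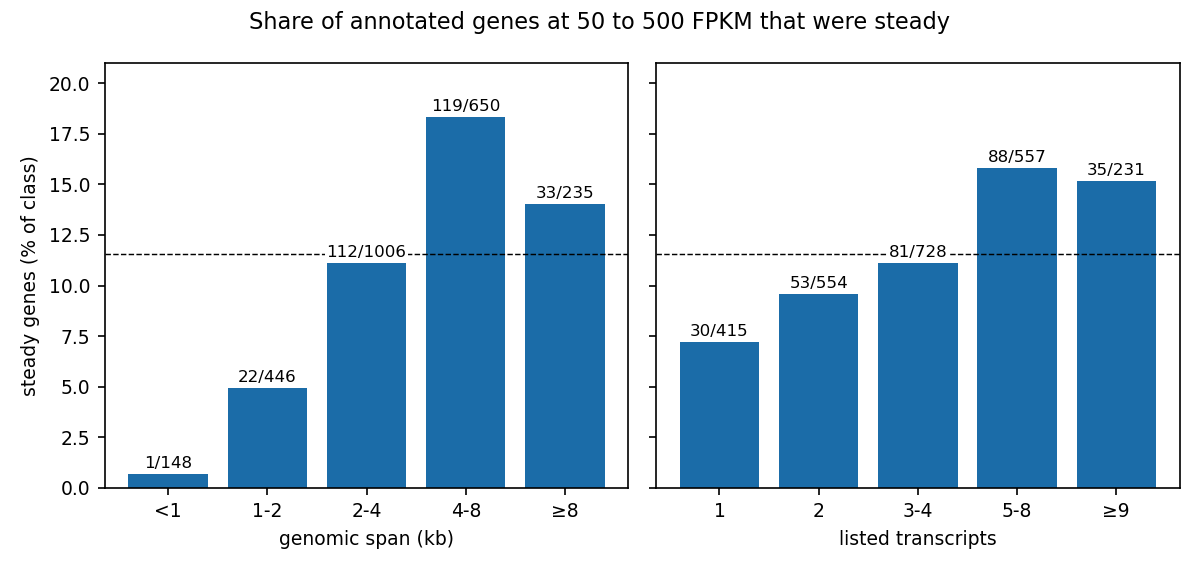
Share of annotated genes with a control mean of 50 to under 500 FPKM that were steady, in percent (vertical axis), by genomic span in kb (left) and by number of listed transcripts (right); the figures on the bars are steady genes over all genes of the class and the dashed line is the share over all classes, 11.5%. The share is lowest in the class of shortest genes (0.676%) and in genes with a single listed transcript (7.23%).

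They also tended to have more listed transcripts. The median was 4 transcripts in the steady genes and 3 in the others of the range, and a single transcript was listed for 10.5% against 17.5%. The share within the limit was 7.23% in genes with 1 transcript, 9.57% with 2, 11.1% with 3 to 4, 15.8% with 5 to 8 and 15.2% with 9 or more. Span and transcript number go together. Between 2000 and 4000 bp the share was 11.1% both in genes with 1 transcript (13 of 117) and in genes with several (99 of 889), and between 1000 and 2000 bp it was 5.99% (10 of 167) and 4.30% (12 of 279). Between 4000 and 8000 bp it was 30% (6 of 20) with 1 transcript and 17.9% (113 of 630) with several. Within these classes of span the share with several transcripts was thus about equal or lower. The classes held only 6 to 13 steady genes with 1 transcript each.

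The most finely divided steady gene was XLOC_027101, on the minus strand of chromosome 4 (20911027 to 20928372), with 5 annotated and 19 assembled transcripts. Its sum was 115, 121 and 122 FPKM in the controls and 119, 116 and 117 FPKM after drying, and its main transcript, an assembled one, held 51.4% on average with a range of only 3.36 percentage points over the libraries. XLOC_029535 on chromosome 5 has 19 listed transcripts and summed to 53.5, 52.2 and 58.7 FPKM in the controls and 54.2, 52.2 and 52.0 FPKM after drying. In both, the groups overlapped.

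No locus known from assembled reads alone was steady at this level. The same range of control means held 261 such loci, the least variable of which had a ratio of 1.22. They were mostly very short, with a median span of 187 bp and 203 of them under 500 bp. None of the 38 annotated genes spanning under 500 bp was steady either (0 of 38).

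The steady genes were spread over all 19 chromosomes, with 1 more on an unplaced scaffold. The share of genes in the range that were steady ran from 5.48% on chromosome 12 (4 of 73) to 16.0% on chromosome 17 (12 of 75). The plus strand held 150 and the minus strand 137. In the order of tested annotated genes along the chromosomes, only 2 pairs of steady genes were direct neighbours. Another listed gene overlapped 23 of them, in 17 cases on the opposite strand and in 11 on the same strand (a gene can count in both). Reads inside an overlap of opposite strands cannot be told apart by strand, as the kit named in the labels keeps none.

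A steady sum often came with unsteady estimates for the transcripts within it. Several transcripts are listed for 257 of the steady genes, 1368 in all, and in 99 of these genes (38.5%) the main transcript itself stayed within the same 15%. In 21 genes (8.17%) it varied more than 2-fold while the sum did not. The figure was 21.6% in the other genes of the range with several transcripts, whose sums were not held within the limit. The limit on the sum also bounds a main transcript that holds nearly all of it, over 95% in 84 of the 257. That is 32.7%, against 26.1% of the other genes, and a share that high has little room to move. Nothing is therefore read from this difference, or from those in share and leading transcript that follow. The main transcript's share of the sum moved over the 6 libraries by a median of 10.4 percentage points, by more than 20 points in 66 genes and by more than 50 points in 10. In the other genes of the range with several transcripts the median was 14.3 points, and 35.6% moved by more than 20 points against 25.7% of the steady genes. The transcript with the largest share was the same in all 6 libraries in 212 of the 257 genes and changed in 45 (17.5%, against 27.6% of the other genes). One transcript led in all controls and another in all air-dried libraries in 0 of the 257 steady genes and in 6 of the 1813 others.

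The plainest case was POPTR_0009s08180.r1, on the plus strand of chromosome 9 (7529836 to 7532082). The sum over its transcripts was 174, 161 and 168 FPKM in the controls and 161, 166 and 181 FPKM after drying, with overlapping groups. Its annotated transcript, POPTR_0009s08180.1, was at 0.0117, 0.0136 and 83.4 FPKM in the controls and at 25.5, 135 and 172 FPKM after drying. The assembled transcript POPTR_0009s08180.1.r2.j, which starts at 7529936 and ends at the same base, was at 174, 161 and 85.0 FPKM in the controls and at 135, 30.7 and 8.06 FPKM after drying. By these estimates, controls 1 and 2 held almost none of the annotated form and air-dried 2 and 3 mostly that form, with control 3 and air-dried 1 in between.

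The share of POPTR_0009s08180.1 in its gene was 16.5 ± 28.6% in the controls and 64.2 ± 42.5% after drying (SD, n = 3). The difference did not pass, with a change of 6.24 in the log2 ratio to the gene's other transcripts (SE 2.48, limma adjusted p = 1.00). The SDs exceed or approach the means, since the libraries of each group differed widely among themselves.

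In POPTR_0005s24780.r1, on the plus strand of chromosome 5 (23224398 to 23229853), the sum was 55.3, 59.7 and 59.6 FPKM in the controls and 52.4, 59.1 and 58.0 FPKM after drying. Its assembled transcript POPTR_0005s24780.1.r1.j was at 24.9, 24.6 and 18.8 FPKM in the controls and at 10.7, 0.317 and 0.135 FPKM after drying, so the groups were separate. Its share was 39.3 ± 6.92% in the controls and 7.04 ± 11.5% after drying (SD, n = 3), and the change of −3.74 in the log2 ratio did not pass (SE 1.04, limma unadjusted p = 0.0102, adjusted p = 1.00). Another assembled transcript, POPTR_0005s24780.1.r4.j, took 64.8% of the gene in control 3 and 14.2% and 13.5% in air-dried 2 and 3, and it was near 0 in the remaining libraries (at most 0.000766 FPKM).

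XLOC_022125, on the minus strand of chromosome 2 (7872835 to 7879674), joins transcripts of 2 annotated gene models and lists 14 transcripts. Its sum was 133, 142 and 142 FPKM in the controls and 141, 143 and 145 FPKM after drying. The assembled transcript POPTR_0002s10850.2.r2.j was at 116, 97.3 and 87.3 FPKM in controls 1 and 2 and air-dried 1, and near 0 or low in control 3 (1.13e-07 FPKM), air-dried 2 (3.19e-09 FPKM) and air-dried 3 (3.90 FPKM). POPTR_0002s10850.2.r3.j, listed with the same start and end, was at 125, 134 and 101 FPKM in control 3 and air-dried 2 and 3 and at no more than 1.62e-10 FPKM in the rest. The values of these 2 transcripts alternated library by library along a line that crosses the labelled groups. How shared reads were divided between them is not stated, so a replacement of one RNA by the other is not shown. The change of 3.09 in the log2 ratio of POPTR_0002s10850.2.r3.j between the groups did not pass (SE 3.70, limma adjusted p = 1.00).

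**Figure D4:**
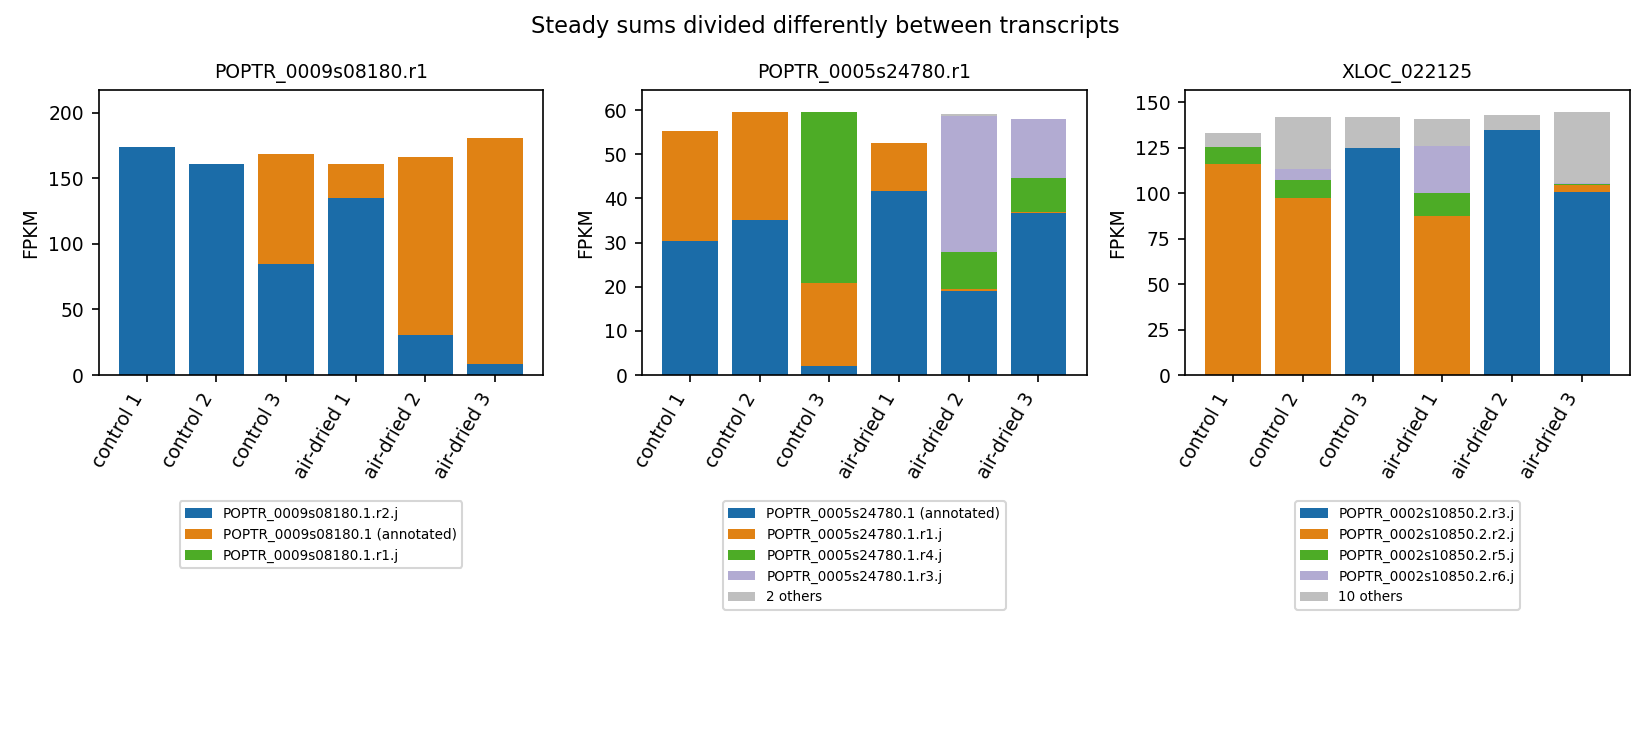
FPKM of each transcript (coloured parts) in each of the 6 libraries (bars) for 3 steady genes whose division between transcripts moved most between the group means; bar height is the gene's sum in FPKM. The heights are nearly level while the parts differ, with control 3 like air-dried 2 and air-dried 1 like controls 1 and 2 in XLOC_022125.

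Over all transcripts that could be tested, no share was called as different between the groups. Of 28459 transcripts in 9998 genes, none passed (0%, limma with Benjamini-Hochberg adjustment, lowest adjusted p = 0.220), and 1006 (3.53%) had an unadjusted p under 0.05. The steady genes gave 476 of these transcripts, in 173 genes, with 0 called and 8 (1.68%) with an unadjusted p under 0.05. The 3 libraries of one group lay all above or all below the other in 37 of the 476, 7.77% against a background of 8.32%. A missed threshold does not show that the shares were alike, because the standard error of the log2 ratio had a median of 0.45 in these transcripts.

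The spread within the groups had a common order. Across these transcripts, the deviations of the shares from their mean over the libraries correlated at r = 0.45 to 0.57 among controls 1 and 2 and air-dried 1 and at 0.48 to 0.65 among control 3 and air-dried 2 and 3. Between a library of the first and one of the second set, r ran from −0.76 to −0.63. Deviations from a mean correlate negatively by construction, transcripts of a gene share one total, and all values come from the same 6 libraries, so these correlations describe the libraries and carry no test. In the 3549 such transcripts of the other genes in the range, the same pairs ran from 0.53 to 0.59, from 0.58 to 0.69 and from −0.77 to −0.65.

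**Figure D5:**
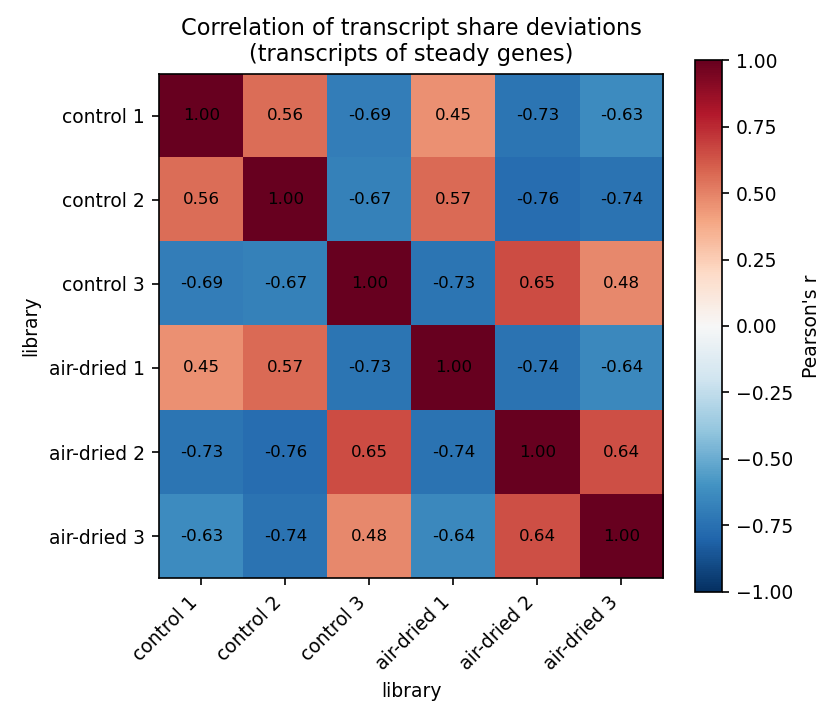
Pearson's r between the 6 libraries (rows and columns) of the deviations of the tested transcript shares from their mean over the libraries, in steady genes with several transcripts. Controls 1 and 2 and air-dried 1 correlate positively with each other (0.45 to 0.57) and negatively with control 3 and air-dried 2 and 3 (−0.76 to −0.63).

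Leaving out any 1 library called no share. Without control 3 and air-dried 1, a choice made after the data were seen, 24 of 473 transcripts in 15 steady genes were called, 13 higher and 11 lower, which is 5.07% against 2.22% of all transcripts tested there. The 4 libraries that remain differ by treatment and by the order of the libraries just described, which cannot be told apart in them. In XLOC_022125 the 2 libraries left out are those that went against the difference between the groups.

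Counting annotated transcripts alone changed which genes were steady. Assembled transcripts held 31.8% to 32.9% of the summed FPKM of the steady genes, against 32.0% to 33.8% in the others of the range. None was listed for 13.2% of the steady genes and 20.6% of the others. At least 1 was listed for 249 of the 287 steady genes. On their annotated transcripts alone, 76 of these 249 stayed within the limit, and 63 varied more than 2-fold. Annotated transcripts held on average under 50% of the sum in 91 steady genes and under 10% in 38. Large ratios can therefore come from values near 0, as the highest did (2.13e+98). Several annotated gene models were joined in 9.76% of the steady genes and 12.1% of the others of the range. The 28 steady genes of this kind join transcripts of 2 or 3 models, 58 models in all. Only 4 of these models were within the limit by their annotated transcripts, and in none of the 28 genes were all models so (0 of 28). The joined sum differs from its models both by the joining and by the assembled transcripts, and these were not separated.

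The genes next to the steady ones were examined with steady genes themselves passed over. The nearest gene on each side that was neither steady itself nor overlapping was taken, at a median distance of 3551 bp. Of 376 such neighbours tested, 13 were called (3.46%), 9 of them up and 4 down in the air-dried leaves. Of all tested genes, 4.30% were called by the same limma fit, 3.61% up and 0.696% down, so the neighbours' share lay near the background. The count was 8, 7 and 10 without control 1, 2 and 3 in turn, and 8, 8 and 7 without air-dried 1, 2 and 3. It was 20 without control 3 and air-dried 1, where 5.88% of all tested genes were called. The background of 971 called genes also fell, to 578, 536 and 693 without control 1, 2 and 3 in turn, and to 667, 568 and 477 without air-dried 1, 2 and 3.

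The largest rise beside a steady gene was that of POPTR_0002s00350, on the plus strand of chromosome 2 (93065 to 94085). The control libraries were at 0.642, 0.684 and 0.640 FPKM and the air-dried ones at 61.3, 45.8 and 49.9 FPKM, a change of 5.0 on the log2(FPKM + 1) scale (SE 0.12, limma adjusted p = 2.15e-05, higher in 3 of 3 libraries). Only 347 bp away on the minus strand, with its end facing this gene, POPTR_0002s00360.r1 (94433 to 96940) measured 232, 225 and 224 FPKM in the controls and 240, 215 and 239 FPKM after drying. The control and air-dried values overlapped in the steady gene and lay far apart in its neighbour. The limit on the spread held the first close and the neighbour was named for its rise, so nothing is read from this contrast.

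One steady locus had a called gene on both sides. XLOC_033986, on the minus strand of chromosome 7 (13836607 to 13853755), joins 3 annotated gene models and measured 93.0, 99.2 and 94.0 FPKM in the controls and 101, 92.5 and 95.5 FPKM after drying. On one side at 460 bp, POPTR_0007s13840 measured 0.269, 0.432 and 0.499 FPKM in the controls and 5.95, 7.04 and 7.80 FPKM after drying (log2 change 2.50, SE 0.13, limma adjusted p = 0.000252). The neighbour on the other side, at 83 bp, was at 19.3, 22.4 and 25.5 FPKM in the controls and at 36.0, 40.0 and 38.3 FPKM after drying (log2 change 0.75, SE 0.11, limma adjusted p = 0.0196).

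Of the 4 falls beside steady genes, the 2 largest are given. POPTR_0007s13050, 2129 bp from POPTR_0007s13060.r1 on the same strand of chromosome 7, was at 2.76, 2.63 and 2.75 FPKM in the controls and at 1.52, 1.43 and 1.52 FPKM after drying (log2 change −0.58, SE 0.086, limma adjusted p = 0.0191). XLOC_036308, an assembled locus with no strand given, 5307 bp from POPTR_0008s11770.r1, was at 4.01, 4.78 and 4.88 FPKM in the controls and at 2.45, 2.60 and 1.75 FPKM after drying (log2 change −0.77, SE 0.14, limma adjusted p = 0.0368). With any 1 library left out, both calls were lost (limma adjusted p from 0.0572 to 0.153) while the changes stayed near their size, at −0.59 to −0.56 for POPTR_0007s13050 and −0.85 to −0.65 for XLOC_036308. Both steady genes overlapped between the groups, POPTR_0007s13060.r1 at 48.0 to 54.8 FPKM and POPTR_0008s11770.r1 at 52.4 to 59.1 FPKM over the 6 libraries.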

How the data were processed

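The deposited values are FPKM per transcript in 6 leaf RNA libraries, per the file headers, with no scaling between libraries stated. FastQC, TopHat and Cufflinks are named in the submitters' processing notes, without versions. The sources used here do not name the genome build, annotation or filters. Coordinates are the deposited ones. How reads shared by transcripts of a gene were divided between them is not stated, so transcript values are estimates. FPKM carries no counts, so depth and counting error are unknown.

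FPKM was summed over the transcripts of each gene, and the sums were tested with limma 3.58.1 in R 4.3.3 on log2(FPKM + 1) for 22559 genes with at least 1 FPKM in 3 of the 6 libraries (eBayes with trend for genes, 2-sided, Benjamini-Hochberg adjusted p under 0.05). This scale understates the change of genes at low levels. Shares were tested as the log2 ratio of (transcript FPKM + 1) to (FPKM of the gene's other transcripts + 1), in genes of at least 5 FPKM in every library and for mean shares of 5% to 95%. The fits were tested on simulated data with noise independent between libraries, and for shares with an added constant smaller than 1. The real share deviations are correlated between libraries, so the simulation does not show how the share fit performs on them. Genes were named by fixed rules: the 4 lowest ratios, the 2 highest and 2 lowest means, 2 on each side of the limit, the 2 with most transcripts, the largest moves in share (by size, as none was called) and the largest changes among called neighbours. The criteria, lists and tests were chosen with earlier results of these data known. Families, cell type markers and promoter motifs needed names or sequences and were not run, and no sequence is shown.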

Additional observations from a re-analysis of the deposited data

How the results depend on the processing

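The count of 287 steady genes was 156 with annotated transcripts alone (112 of them shared), 0 with libraries rescaled to one sum, 94 at a limit of 10%, 592 at 20%, 917 at control means of 10 to under 50 FPKM, 20 at 500 FPKM or more and 640 without control 3 and air-dried 1, the alternative chosen after the data were seen. Leaving out 1 library gave 349 to 452. The 971 called genes became 553 at a mean of at least 5 FPKM, 453 rescaled to one sum, 538 with annotated transcripts, 2516 with library weights, 1327 without control 3 and air-dried 1 and 477 to 693 without 1 library. The 13 called neighbours became 6, 6, 7 and 33 under the first 4 of these, 7 to 10 without 1 library and 20 without both. With the replicate number as a block there were 557 called genes and 6 called neighbours. Same-numbered libraries deviated with correlations of 0.24, −0.15 and 0.12, which does not show pairing. Called shares went from 0 to 636 transcripts, and from 0 to 15 steady genes, without control 3 and air-dried 1, and stayed at 0 under the other 13 alternatives, the block among them. No steady gene was called as a gene under any of 17 alternatives (0 each). The limit on the spread leaves little room for such calls by its construction, so nothing is read from this count. The 4 named neighbours and the 4 named transcript shares kept their direction under each alternative run, but the alternatives reuse the same libraries. Both named falls lost their call in 10 of the alternatives each. The change in the log2 ratio of POPTR_0002s10850.2.r3.j fell to 0.82 (SE 3.94) without air-dried 2. The direction of the small differences in named steady genes was not followed across alternatives. What causes these differences was not tested. FPKM holds no counts, so what depth limits is not known.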
